A study of Mus musculus with 12 samples.

Results

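Mitosis is carried out by proteins that most cells make only in the last part of the cell cycle, and 44 genes for such proteins were followed here in newborn mouse skull. They encode the kinases and checkpoint proteins that time mitosis, CDK1 with its cyclins and activating phosphatases, the machinery of anaphase, kinesin motors, centromere and kinetochore proteins, chromosomal passenger proteins, chromosome and spindle proteins, and the proteins of cytokinesis. The genes were listed by name from these classes. All 44 were among the 23358 rows of the deposited count table, and all 44 were among the 16190 genes that passed the filter on low counts. Each had between 176 and 8384 deposited counts in a library, Kif18a holding the lowest and Mki67 the highest value.

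RNA was sequenced from the frontal bone of mice at postnatal day 3, taken with the nasal bone, the coronal suture and the frontonasal suture. There were 4 groups of 3 samples: C57BL/6 wild type (replicates 1 to 3), C57BL/6 Fgfr2 C342Y/+ (replicates 4 to 6), BALB/c wild type (replicates 13 to 15) and BALB/c Fgfr2 C342Y/+ (replicates 16 to 18). The mutants carry 1 copy of an Fgfr2 allele that models Crouzon syndrome, in which skull sutures fuse too early, and the study asked how the strain background alters the mutant's gene expression. The 4 groups shared age, tissue and protocol, in which the bone was digested with collagenase and trypsin before RNA extraction. No cell type was isolated, so fewer dividing cells and less RNA per dividing cell cannot be told apart. The labels do not say whether the samples of a group came from separate animals. In 3 groups, Y-linked transcripts were present in some libraries and near 0 in others, so those groups hold more than 1 animal; in the C57BL/6 wild type group the spread that p-values measure may be technical.

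Libraries held 27181658 to 46521546 counts assigned to genes; every deposited count was even, so a read pair may have been entered as 2 counts and these totals may exceed the number of fragments. Levels are given as CPM, counts divided by library sizes scaled by TMM, a scaling that assumes most genes do not change, and levels of different genes are compared only after division by the length in the deposited table (RPKM). That column is headed as coding length, but only 12 of the 44 members' lengths, and 37.8% of all rows', are multiples of 3, so it may include untranslated parts and is called the deposited length here. The C57BL/6 libraries carry 1 flow cell name and the BALB/c libraries another, so strain and flow cell cannot be told apart, while genotype was compared within a flow cell. Fgfr2, counted from both alleles together, averaged 249 CPM (SD 35.8) in the C57BL/6 wild type group, 361 CPM (SD 20.6) in the C57BL/6 mutant group, 282 CPM (SD 11.4) in the BALB/c wild type group and 299.9 CPM (SD 24.95) in the BALB/c mutant group, with n = 3 each. Mutants were higher in C57BL/6 by 0.54 log2 units (SE 0.10, adjusted p 0.00405 by edgeR), and the BALB/c difference was 0.09 (SE 0.10, adjusted p 0.800). Counts per gene do not show the point mutation and so do not check the genotype labels. Some libraries stood apart. C57BL/6 wild type replicate 1 had a summed osteoblast marker level of 113763 CPM against 192097 and 196899.9 CPM in replicates 2 and 3, a neutrophil precursor level of 404 CPM against 224 and 277 CPM, and a TMM factor of 1.17 against 1.03 and 1.01. C57BL/6 mutant replicate 4 had a summed chondrocyte marker level of 4377 CPM against 1605 and 1759 CPM in replicates 6 and 5, and an epithelial marker level of 69.9 CPM against 4.96 and 3.73 CPM. Summed Y-linked transcripts were at 152 to 161 CPM in all 3 C57BL/6 wild type libraries, and at 185, 162 and 145 CPM in replicates 6, 15 and 16, 1 library of each other group, with the remaining libraries at or below 1.36 CPM.

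A cell enters mitosis when CDK1, bound to cyclin A or cyclin B, is activated by CDC25 phosphatases, and Polo-like and Aurora kinases then direct spindle assembly and chromosome attachment. The spindle checkpoint holds back the anaphase-promoting complex (APC/C) until every kinetochore is attached, after which cyclin B and securin are destroyed, separase cuts cohesin and the cell divides. Many of these genes are repressed outside the cell cycle and in G1 by the DREAM complex. They are transcribed together in G2 and M phase by its relatives with B-MYB and FOXM1. These complexes act through a promoter element called the cell cycle genes homology region (CHR), often next to CCAAT boxes bound by NF-Y. In a growing bone, dividing cells include osteoprogenitors, chondrocyte precursors and the blood precursors of the marrow.

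The promoters of the members are shown first, and any link of their letters to the expression changes was not tested. RefSeq promoter sequence on GRCm38.p6, from 250 bases before to 50 bases after the start that the RefSeq table gives, was matched for 37 of the 44 genes; Aurkb, Ccna2, Cdc25c, Kif20a, Spc24, Incenp and Tpx2 were not matched. Both strands were searched for the CHR letters TTTGAA, whose reverse complement is TTCAAA, and the variant TTCGAA, and for the CCAAT box, whose reverse complement is ATTGG, and no match of one overlapped a match of the other. A CHR match was found in 30 of 37 promoters (81.1%), where 19.5% of the 27025 genes with such a window held one. A CCAAT match was found in 28 of 37 (75.7%, against 38.0% of all) and both in 25 of 37 (67.6%, against 7.73% of all). Within 100 bases before to 50 after the start, 28 of 37 held a CHR match, against 8.69% of all genes. For 35 of the 37 the RefSeq start lay no more than 50 bases inside the gene of the deposited table, while for Pttg1 it lay 267 and for Kif2c 3852 bases inside, so those windows may miss the promoter. A match is a run of letters and was not tested as a binding site.

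The 200 bases before the start are printed for 3 genes, minus strand for all 3, with CHR and CCAAT matches in capitals: Mki67 (chr7:135716380-135716579), Top2a (chr11:99024190-99024389) and Cdk1 (chr10:69352913-69353112). Mki67 and Top2a were the most abundant of the 44 by CPM, and Cdk1 is the central kinase.
Mki67: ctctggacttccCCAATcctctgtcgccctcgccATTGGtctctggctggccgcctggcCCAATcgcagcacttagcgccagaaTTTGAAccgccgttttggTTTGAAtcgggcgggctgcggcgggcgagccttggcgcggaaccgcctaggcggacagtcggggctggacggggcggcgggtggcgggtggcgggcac
Top2a: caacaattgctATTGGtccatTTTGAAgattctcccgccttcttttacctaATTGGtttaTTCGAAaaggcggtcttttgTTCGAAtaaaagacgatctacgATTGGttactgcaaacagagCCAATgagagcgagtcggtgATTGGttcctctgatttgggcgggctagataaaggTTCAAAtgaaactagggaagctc
Cdk1: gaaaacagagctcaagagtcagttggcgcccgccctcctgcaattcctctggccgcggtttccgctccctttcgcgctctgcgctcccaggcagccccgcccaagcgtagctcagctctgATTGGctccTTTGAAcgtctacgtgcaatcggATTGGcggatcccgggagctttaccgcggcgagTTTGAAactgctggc
Top2a held 4 CHR and 6 CCAAT matches in its whole window, Mki67 held 2 and 3, and Cdk1 held 2 and 3. The windows of Kif18a, Nuf2, Birc5 and Pttg1 held 0 of either, which says only that these letters are not in those windows, and that of Pttg1 lay inside the deposited gene.

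In many members the CHR letters lay close to the start, so 30-base windows around them are shown for 10 genes of different roles, with CHR matches and 1 CCAAT match in capitals. They come from Plk1 (chr7:122159453-122159482, plus strand), Ccnb2 (chr9:70421533-70421562, minus), Cenpf (chr1:189688067-189688096, minus), Racgap1 (chr15:99651634-99651663, minus), Aurka (chr2:172370521-172370550, minus), Kif4 (chrX:100626072-100626101, plus), Cenpa (chr5:30666890-30666919, plus), Cdc20 (chr4:118437344-118437373, minus), Espl1 (chr15:102296254-102296283, plus) and Kif11 (chr19:37376351-37376380, plus).
Plk1: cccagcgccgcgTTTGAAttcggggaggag
Ccnb2: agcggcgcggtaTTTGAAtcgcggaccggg
Cenpf: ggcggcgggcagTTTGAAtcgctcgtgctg
Racgap1: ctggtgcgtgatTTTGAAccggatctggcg
Aurka: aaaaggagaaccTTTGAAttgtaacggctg
Kif4: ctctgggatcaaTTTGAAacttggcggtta
Cenpa: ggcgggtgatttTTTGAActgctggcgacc
Cdc20: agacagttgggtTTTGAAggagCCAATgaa
Espl1: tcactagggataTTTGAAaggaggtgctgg
Kif11: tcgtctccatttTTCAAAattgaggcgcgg
Of these 10, Kif11 holds the reverse complement, TTCAAA, and the others hold TTTGAA.

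The mitosis genes were lower in C57BL/6 mutants than in C57BL/6 wild type. By edgeR's quasi-likelihood test with Benjamini-Hochberg adjustment over all genes, 42 of 44 fell at an adjusted p under 0.05, where 12.6% of the genes tested were called lower. Pttg1 alone rose, where 11.3% were called higher, and Bub3 was not past the threshold. Replicate ranges of CPM did not overlap and were lower in mutants for 42 genes, against 21.9% of all genes; Cdk1 was the overlapping one, and Pttg1 was higher without overlap, as were 19.7% of all genes. The median log2 fold change was -0.58, a median level of 0.669 times wild type, with a range from -0.92 (Nek2) to 0.46 (Pttg1), while the median of all genes was -0.00.

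In BALB/c the estimates were mostly smaller and lay on the other side of 0. All 44 estimates were above 0, with a median log2 fold change of 0.27 (1.21-fold), a range from 0.03 (Ndc80) to 0.66 (Kif14) and a median of 0.00 over all genes. Plk1 was the 1 member that rose past the edgeR threshold, where 0.0926% of genes were called higher, and 0 members fell, where 0.0432% were called lower. At an unadjusted p under 0.05, 31 members were higher and 0 lower, where 1151 of 16190 genes were higher and 750 lower. CPM ranges did not overlap and were higher in mutants for 38 of 44 genes, against 9.93% of all genes. DESeq2, run as an alternative on the same counts, called 6 members higher, where it called 1.46% of all genes higher.

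The difference between the strains' genotype effects was tested as an interaction, the effect in BALB/c minus the effect in C57BL/6. It was called positive for 38 of 44 genes by edgeR, where 5.46% of all genes were called positive, and negative for 0, where 4.58% were. The median of the 44 was 0.83 on the log2 scale, against 0.01 over all genes. The 6 that did not pass were Bub1 (adjusted p 0.0543), Ttk (0.0598), Bub3 (0.0946), Kif20b (0.0521), Ndc80 (0.0811) and Pttg1 (0.593); Bub3 passed in 2 of 17 alternatives. Since the interaction, both genotype contrasts and both strain contrasts draw on the same 12 libraries, their values are set side by side below and are not independent of each other.

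**Figure D1:**
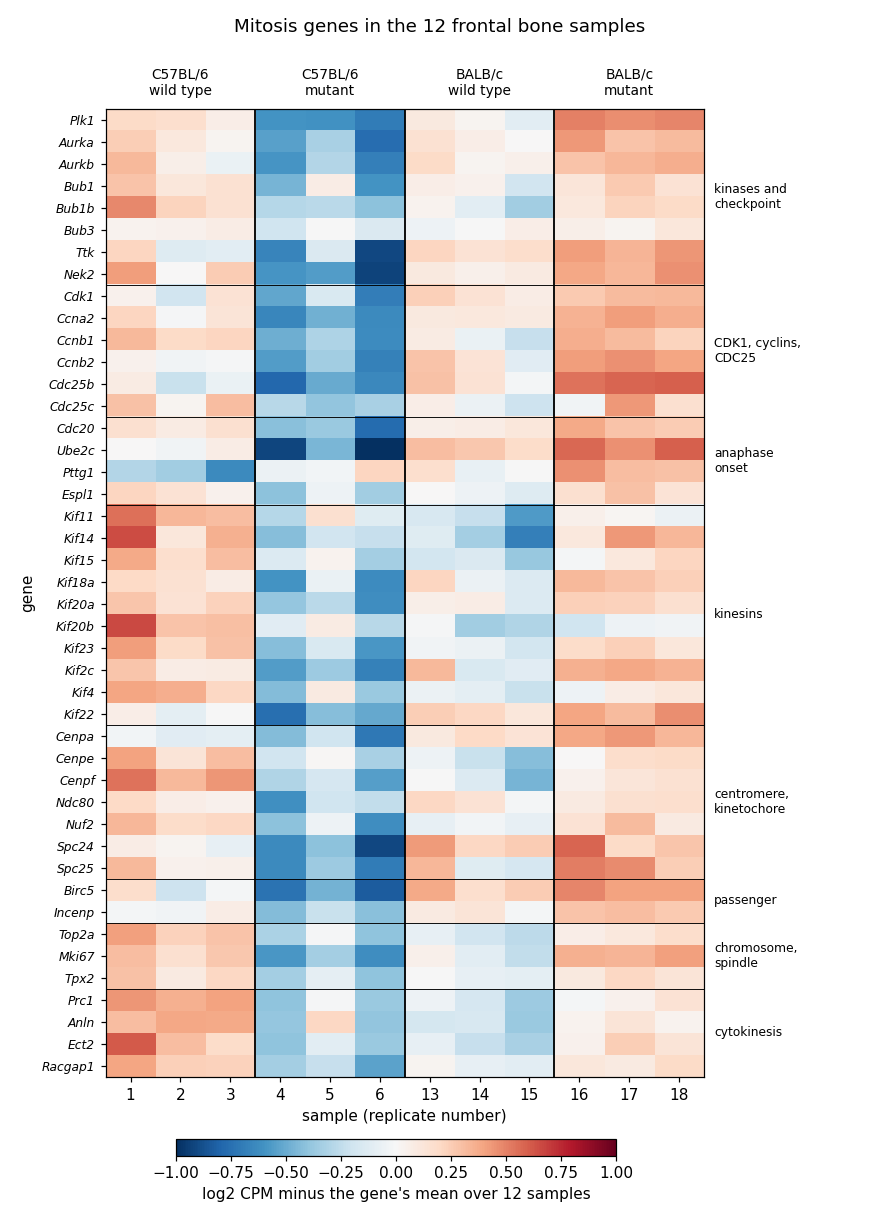
Level of each of the 44 mitosis genes (rows, ordered by role) in each of the 12 samples (columns, by group and replicate), as log2 CPM minus the gene's mean over the samples. The C57BL/6 mutant columns are below the C57BL/6 wild type columns for 42 of 44 genes, replicate 5 less so than 4 and 6, and Pttg1 is the row that runs the other way.

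Mitotic kinases and spindle checkpoint genes came to 8, of which 7 fell in C57BL/6 mutants. Plk1 (chromosome 7, 122159437 to 122169875 in the deposited table) encodes Polo-like kinase 1, which drives mitotic entry and spindle assembly. Its level was 24.1, 23.7 and 22.1 CPM in the C57BL/6 wild type samples and 13.9, 13.9 and 12.99 CPM in the C57BL/6 mutants. In BALB/c it was 22.6, 21.6 and 19.6 CPM in wild type and 29.9, 29.2 and 29.5 CPM in mutants. The mutant libraries lay below every wild type library in C57BL/6 and above every wild type library in BALB/c. Plk1 was 41.7% lower in C57BL/6 mutants (log2 -0.78, SE 0.07, adjusted p 8.26e-05, edgeR) and 1.39-fold higher in BALB/c mutants (log2 0.48, SE 0.06, adjusted p 0.0369). The interaction was 1.25 (SE 0.09, adjusted p 5.23e-05). The BALB/c call rested on few libraries: it was lost with scaling by total counts (adjusted p 0.0775) and in 5 of the 6 fits that left out 1 BALB/c library (adjusted p 0.0573 to 0.197), though the estimate stayed between 0.42 and 0.53 in all 12 alternatives. Of the gene's 50-base stretches, 6.56% also occur in the pseudogene Plk-ps1.

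Nek2, a centrosome kinase, was the member with the most negative C57BL/6 estimate. It stood at 19.0, 14.3 and 16.9 CPM in C57BL/6 wild type and 9.44, 9.65 and 7.49 CPM in mutants, groups that did not overlap, and was 47.0% lower (log2 -0.92, SE 0.12, adjusted p 0.00055, edgeR). Aurka and Aurkb, the Aurora kinases of the spindle poles and of the chromosomal passenger complex, fell by 0.66 (adjusted p 0.00182) and 0.63 (adjusted p 0.00311) on the log2 scale. The checkpoint kinase genes Bub1, Bub1b and Ttk fell by 0.49, 0.61 and 0.54, with adjusted p 0.0327, 0.0024 and 0.036. None of these 6 passed in BALB/c, where their estimates ran from 0.20 to 0.31 on the log2 scale and their adjusted p from 0.27 to 0.674.

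Bub3 encodes the checkpoint protein that brings BUB1 and BUBR1 to kinetochores and has roles outside mitosis as well. It had the highest CPM of its class and, by RPKM, the second highest level of the 44 at 23.9 over all samples. Its values were 50.2, 50.5 and 51.6 CPM in C57BL/6 wild type and 42.7, 48.9 and 44.5 CPM in C57BL/6 mutants. In BALB/c they were 47.4, 48.8 and 51.4 CPM in wild type and 51.2, 50.1 and 53.0 CPM in mutants. The C57BL/6 groups did not overlap but lay close together, while the BALB/c groups overlapped. The C57BL/6 difference was -0.16 on the log2 scale (edgeR, SE 0.06, adjusted p 0.0608), the member estimate nearest 0 in that strain. It passed with total count scaling (adjusted p 0.0046), with the counts halved (0.0407) and without mutant replicate 5 (0.0258).

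CDK1, its cyclins and its phosphatases came to 6 genes, all of which fell in C57BL/6 mutants and all of which had a positive interaction that passed. Ccna2 (chromosome 3, 36564865 to 36571996) encodes cyclin A2, which partners CDK2 in S phase and CDK1 in G2. It was at 64.3, 54.8 and 60.6 CPM in C57BL/6 wild type and 35.2, 39.6 and 35.6 CPM in mutants, and at 59.3, 59.6 and 59.0 CPM in BALB/c wild type and 70.5, 74.0 and 71.4 CPM in mutants. The wild type means were 59.9 and 59.3 CPM, with mutants below in C57BL/6 and above in BALB/c, and genotypes overlapped in neither strain. Ccna2 fell by 0.70 on the log2 scale in C57BL/6 (edgeR, SE 0.07, adjusted p 0.000121). In BALB/c the estimate was 0.28 (SE 0.06, adjusted p 0.114), which passed with DESeq2 (0.00975) and in a fit of the BALB/c libraries alone (0.0483). Its interaction was 0.98 (SE 0.09, adjusted p 0.000206).

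Cdc25b, which encodes a phosphatase that removes inhibitory phosphates from CDK1, had one of the 3 smallest BALB/c p-values. It was at 47.2, 38.2 and 42.7 CPM in C57BL/6 wild type and 25.9, 31.5 and 28.6 CPM in C57BL/6 mutants. In BALB/c it was at 54.6, 49.4 and 44.04 CPM in wild type and 65.2, 66.9 and 67.5 CPM in mutants. The 3 BALB/c mutants were close together and above all other libraries, and the 3 C57BL/6 mutants were below all others. The log2 differences were -0.58 (SE 0.10, adjusted p 0.00231, edgeR) in C57BL/6 and 0.43 (SE 0.10, adjusted p 0.104) in BALB/c, with an interaction of 1.01 (SE 0.14, adjusted p 0.00205). The BALB/c difference passed with DESeq2 (adjusted p 0.00358) and in a fit of the BALB/c libraries alone (0.0484).

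Cdk1 itself was at 36.9, 31.6 and 39.8 CPM in C57BL/6 wild type and 25.1, 32.4 and 22.3 CPM in mutants, 26.3% lower (adjusted p 0.0223, edgeR). It is the gene whose C57BL/6 ranges overlapped, wild type replicate 2 at 31.6 CPM lying below mutant replicate 5 at 32.4 CPM. Ccnb1 and Ccnb2, the B-type cyclins of mitotic CDK1, fell by 0.71 and 0.52 on the log2 scale (adjusted p 0.000662 and 0.00452), and Cdc25c by 0.55 (adjusted p 0.0182). Ccnb1 shares 23.4% of its 50-base stretches with pseudogenes such as Ccnb1-ps, so its level is less certain than that of Ccnb2, which shares 0%.

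**Figure D2:**
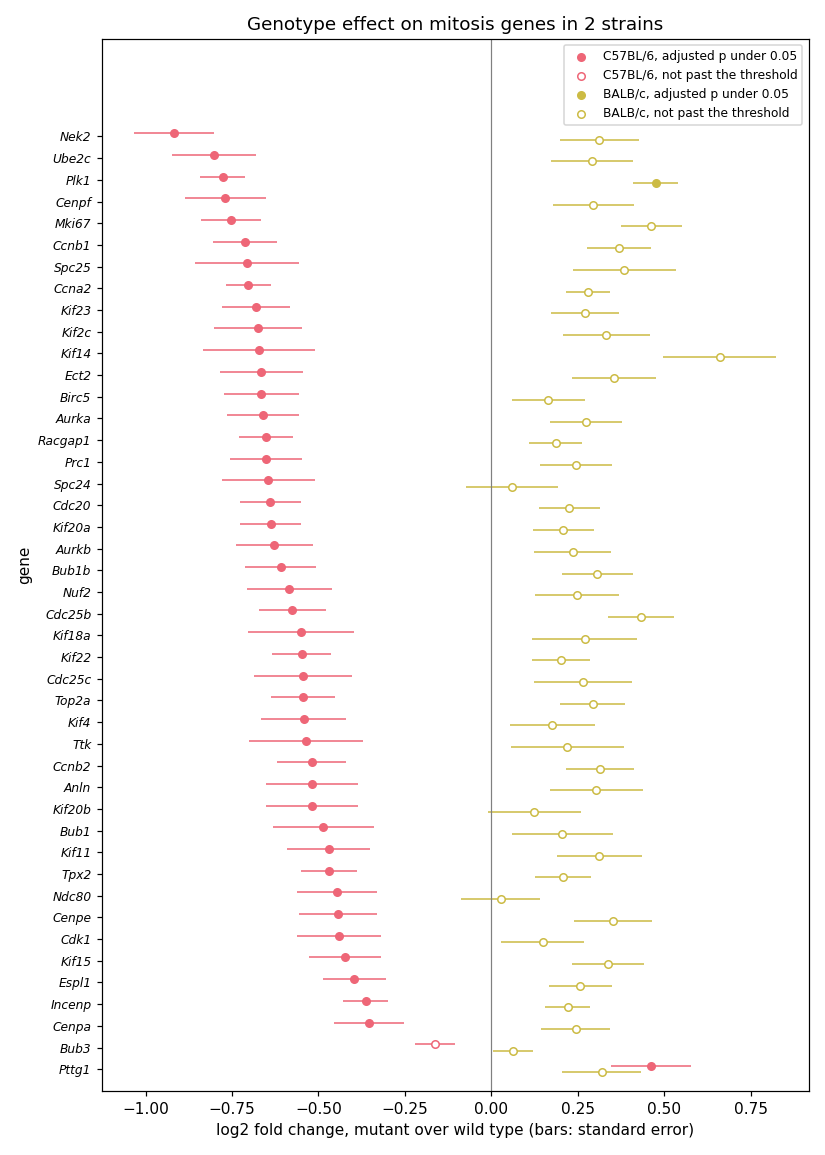
Genotype effect, mutant minus wild type on the log2 scale, for each of the 44 genes (rows, ordered by the C57BL/6 effect) in C57BL/6 and in BALB/c, with bars of 1 standard error and filled symbols where edgeR's adjusted p was under 0.05. The C57BL/6 points lie left of 0 except Pttg1 at 0.46, and the BALB/c points lie right of 0, with Plk1 the filled one.

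Anaphase genes came to 4 and did not move as one. Cdc20, which activates the APC/C, fell by 0.64 on the log2 scale in C57BL/6 mutants (adjusted p 0.000893, edgeR), and Ube2c, the ubiquitin-conjugating enzyme of the APC/C, by 0.80 (adjusted p 0.00139). Espl1 (chromosome 15, 102296293 to 102324356) encodes separase, the protease that opens cohesin. It was at 38.9, 37.0 and 34.4 CPM in C57BL/6 wild type and 25.2, 32.4 and 26.2 CPM in mutants, and at 33.4, 32.3 and 30.5 CPM in BALB/c wild type and 37.4, 40.9 and 36.7 CPM in mutants. Genotypes did not overlap in either strain, with mutants the lower in C57BL/6 and the higher in BALB/c. The log2 difference was -0.40 in C57BL/6 (SE 0.09, adjusted p 0.0106), 0.26 in BALB/c (SE 0.09, adjusted p 0.298), and the interaction 0.65 (SE 0.13, adjusted p 0.0125). The C57BL/6 call was lost without wild type replicate 1 (adjusted p 0.0528), without mutant replicate 6 (0.0503) and in a fit of the C57BL/6 libraries alone (0.0505).

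Pttg1 (chromosome 11, 43420248 to 43426248) encodes securin, the inhibitor that holds separase back until the APC/C destroys it, and it was the exception in C57BL/6. Its values were 9.72, 9.33 and 7.67 CPM in C57BL/6 wild type and 11.4, 11.6 and 13.8 CPM in mutants. In BALB/c they were 13.4, 11.3 and 11.9 CPM in wild type and 16.3, 14.7 and 14.6 CPM in mutants. Mutants were the higher genotype in both strains with no overlap, and the C57BL/6 wild type libraries were the lowest of the 12. The log2 difference was 0.46 in C57BL/6 (SE 0.12, adjusted p 0.0156, edgeR) and 0.32 in BALB/c (SE 0.11, adjusted p 0.305), and the interaction was -0.14 (SE 0.16, adjusted p 0.593). The C57BL/6 call was lost with total count scaling (log2 0.26, adjusted p 0.168), without mutant replicate 6 (adjusted p 0.0723) and in a fit of that strain alone (0.0718). Pttg1 shares 0% of its 50-base stretches with another gene and no annotated exon overlaps it.

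All 10 kinesin genes fell in C57BL/6 mutants, by 0.42 (Kif15) to 0.68 (Kif23) on the log2 scale, with adjusted p from 0.000877 (Kif20a) to 0.0243 (Kif18a) by edgeR. Kif11 encodes Eg5, the motor that pushes spindle poles apart. It was at 58.0, 49.98 and 49.2 CPM in C57BL/6 wild type and 32.6, 44.3 and 36.5 CPM in mutants, and at 35.5, 33.9 and 26.9 CPM in BALB/c wild type and 41.1, 40.2 and 38.2 CPM in mutants. The C57BL/6 wild type libraries stood above all others, and the BALB/c mutants overlapped with the C57BL/6 mutants. Kif11 fell by 0.47 in C57BL/6 (SE 0.12, adjusted p 0.0174), the BALB/c difference was 0.31 (SE 0.12, adjusted p 0.345) and the interaction 0.78 (SE 0.17, adjusted p 0.019). Without wild type replicate 1 or mutant replicate 6 the C57BL/6 call was lost (adjusted p 0.0837 and 0.0656), and without the latter the interaction call too (0.0521).

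Kif14, a motor of cytokinesis that binds citron kinase, had the lowest level of the 44 per length, 1.26 RPKM over all samples. Its libraries stood at 16.8, 11.6 and 13.7 CPM in C57BL/6 wild type and 7.95, 9.36 and 9.11 CPM in mutants. In BALB/c they stood at 9.84, 8.46 and 6.68 CPM in wild type and 11.5, 14.4 and 13.4 CPM in mutants. Genotypes did not overlap within a strain. Kif14 fell by 0.67 in C57BL/6 (SE 0.16, adjusted p 0.0137, edgeR), a call lost without wild type replicate 1 (0.0645). Its BALB/c estimate of 0.66 (SE 0.16, adjusted p 0.147) and its interaction of 1.33 (SE 0.23, adjusted p 0.0074) were the highest of the 44, and the former passed with DESeq2 (adjusted p 0.0146). The other kinesins, among them Kif23 of the central spindle, Kif2c of microtubule disassembly at centromeres, Kif18a of chromosome alignment and the chromokinesins Kif4 and Kif22, had BALB/c estimates between 0.12 and 0.34, and 9 of the 10 kinesins passed in the interaction.

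**Figure D3:**
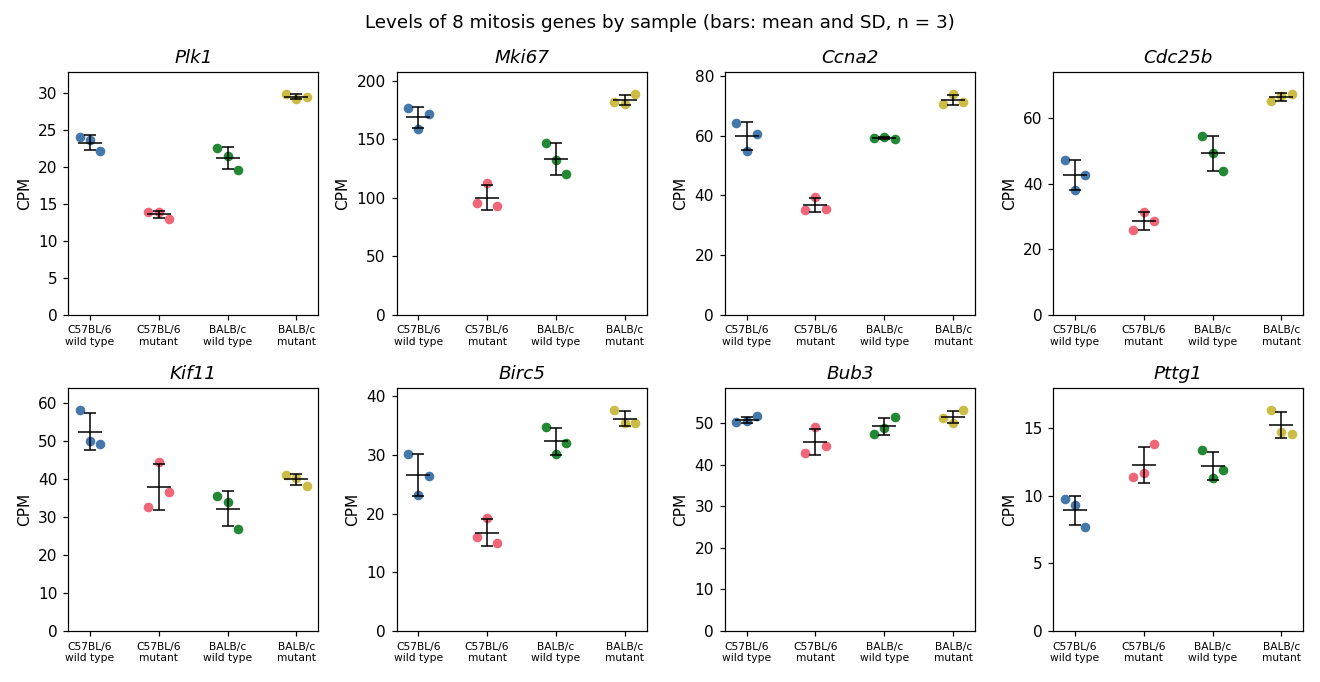
Level in CPM of 8 members in each of the 12 samples, 1 panel a gene, points for samples and bars for the group mean and SD (n = 3), each axis starting at 0. Points of C57BL/6 mutants lie below C57BL/6 wild type and BALB/c mutants above BALB/c wild type for Plk1, Ccna2 and Mki67, while Pttg1 is higher in mutants of both strains.

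The 7 centromere and kinetochore genes all fell in C57BL/6 mutants. Cenpf encodes a large protein of the outer kinetochore and nuclear envelope that accumulates in G2. It was at 36.3, 31.1 and 33.7 CPM in C57BL/6 wild type and 20.2, 22.1 and 16.97 CPM in mutants, and at 24.8, 22.6 and 18.04 CPM in BALB/c wild type and 25.6, 26.9 and 27.6 CPM in mutants. Genotypes did not overlap in either strain, and the C57BL/6 wild type libraries were the highest. Cenpf fell by 0.77 in C57BL/6 (SE 0.12, adjusted p 0.00143, edgeR), the BALB/c difference was 0.30 (SE 0.12, adjusted p 0.354) and the interaction 1.07 (SE 0.17, adjusted p 0.00453).

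The NDC80 complex, which grips the microtubule at the kinetochore, is built from the products of Ndc80, Nuf2, Spc24 and Spc25. These fell by 0.45, 0.58, 0.64 and 0.71 on the log2 scale in C57BL/6 mutants, with adjusted p 0.0176, 0.00694, 0.00694 and 0.00753 by edgeR. In BALB/c the estimates were 0.03, 0.25, 0.06 and 0.38, and the ranges of Ndc80, Spc24 and Spc25 overlapped between genotypes. Cenpa, the centromere's histone H3 variant, fell by 0.35 (adjusted p 0.0271), and the kinetochore motor gene Cenpe by 0.44 (adjusted p 0.0161).

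Chromosomal passenger genes were Incenp and Birc5, whose products carry Aurora B along the chromosomes. Incenp was at 50.6, 49.9 and 53.7 CPM in C57BL/6 wild type and 37.8, 43.8 and 38.3 CPM in mutants, and at 54.5, 56.0 and 50.4 CPM in BALB/c wild type and 62.4, 63.5 and 61.5 CPM in mutants. Genotypes were apart in both strains. Incenp fell by 0.36 in C57BL/6 (SE 0.07, adjusted p 0.00328, edgeR), and its interaction was 0.58 (SE 0.09, adjusted p 0.00458). Birc5, which encodes survivin, was at 30.2, 23.2 and 26.4 CPM in C57BL/6 wild type, 16.04, 19.3 and 15.03 CPM in C57BL/6 mutants, 34.8, 30.2 and 32.0 CPM in BALB/c wild type and 37.7, 35.5 and 35.5 CPM in BALB/c mutants. The C57BL/6 mutants were well below all other libraries and the BALB/c mutants highest. Birc5 fell by 0.66 in C57BL/6 (SE 0.11, adjusted p 0.00192), its BALB/c estimate was 0.16 (SE 0.11, adjusted p 0.608) and its interaction 0.83 (SE 0.15, adjusted p 0.00866).

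Mki67 (chromosome 7, 135689788 to 135716379) encodes Ki-67, a coat protein of mitotic chromosomes used as a marker of cycling cells, and was the most abundant member by CPM. It was at 176, 159 and 171 CPM in C57BL/6 wild type and 95.1, 113 and 92.7 CPM in mutants. In BALB/c it was at 147, 132 and 120.3 CPM in wild type and 182, 180.5 and 189 CPM in mutants. The order was C57BL/6 mutants lowest with no overlap, then BALB/c wild type, then C57BL/6 wild type and BALB/c mutants on top. Mki67 fell by 0.75 in C57BL/6 (SE 0.09, adjusted p 0.000355, edgeR), and the interaction was 1.22 (SE 0.12, adjusted p 0.000342). The BALB/c difference of 0.46 (SE 0.09, adjusted p 0.0676) passed with DESeq2 (7.87e-05), with no filter on low counts (0.0433) and in a fit of that strain alone (0.0372). Top2a, the topoisomerase that untangles sister chromatids, averaged 143 CPM (SD 9.22, n = 3) in the C57BL/6 wild type libraries and fell to 98.0 CPM (SD 14.3, n = 3) in C57BL/6 mutants (log2 -0.55, adjusted p 0.00255), and Tpx2, the spindle assembly factor that activates Aurora A, fell by 0.47 (adjusted p 0.00268).

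Cytokinesis genes came to 4, and all fell in C57BL/6 mutants. Racgap1, whose product forms the centralspindlin complex with that of Kif23, was at 63.6, 57.1 and 56.9 CPM in C57BL/6 wild type and 38.2, 41.4 and 33.5 CPM in mutants. In BALB/c it was at 49.2, 45.8 and 45.03 CPM in wild type and 52.3, 51.5 and 55.4 CPM in mutants. The C57BL/6 groups were the top and the bottom of the 4, with the BALB/c groups between them and apart from each other. Racgap1 fell by 0.65 in C57BL/6 (SE 0.08, adjusted p 0.000427, edgeR), the BALB/c difference was 0.19 (SE 0.08, adjusted p 0.378) and the interaction 0.84 (SE 0.11, adjusted p 0.00182). Prc1, the bundler of midzone microtubules, Ect2, the exchange factor that switches on RhoA, and Anln, which anchors the contractile ring, fell by 0.65, 0.67 and 0.52 (adjusted p 0.00184, 0.00336 and 0.0176).

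Summed over the 44 genes, levels were 1587, 1415 and 1473 CPM in C57BL/6 wild type and 955, 1144 and 918 CPM in C57BL/6 mutants. They were 1366, 1284 and 1199.9 CPM in BALB/c wild type and 1546, 1569 and 1572 CPM in BALB/c mutants. The BALB/c mutants were tightly grouped, and no group overlapped another within a strain. In 3 of the 4 groups 1 library was the highest for most genes: replicate 5 was the highest C57BL/6 mutant for 41 of 44 genes, replicate 1 the highest C57BL/6 wild type for 38, and replicate 13 the highest BALB/c wild type for 35. Among BALB/c mutants no library led, replicates 16, 17 and 18 being the highest for 11, 15 and 18 genes. The 44 genes share their libraries and are not 44 independent measurements. Replicate 4, which stood apart in cartilage and epithelial markers, sat beside replicate 6 here, and without it 39 members were lower and 1 higher in C57BL/6 mutants, where 16.5% of all genes were lower and 12.8% higher. Without wild type replicate 1, which stood apart in osteoblast and neutrophil markers, 29 members were lower, where 5.65% of all genes were. Without mutant replicate 6, 30 members were lower, where 5.36% of all genes were. All 3 C57BL/6 wild type libraries carried Y-linked transcripts, but only 1 C57BL/6 mutant library did, replicate 6. Sex and genotype are therefore partly confounded in this strain. No covariate for sex was fitted, and the part of sex in these differences was not tested. Replicate 6 had the lowest mitosis sum of the 12.

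**Figure D4:**
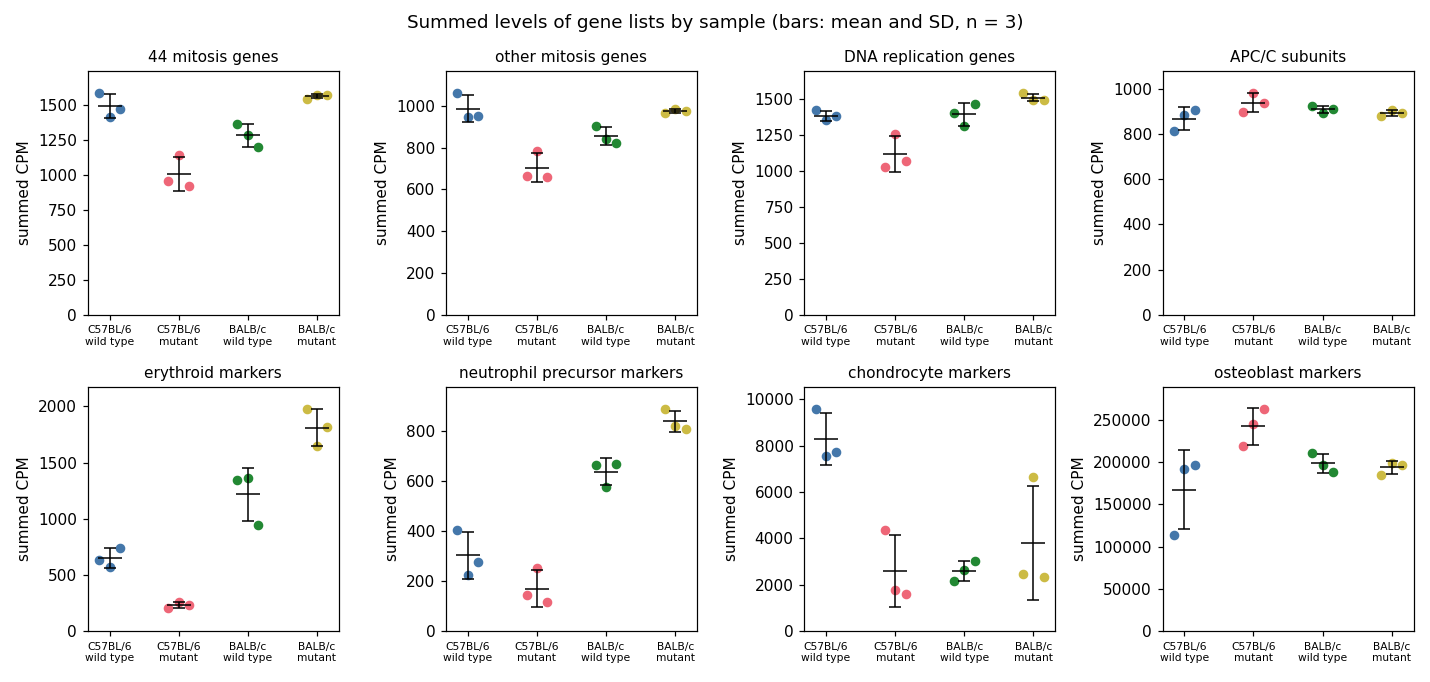
Summed CPM of the 44 mitosis genes and of other gene lists in each sample, 1 panel a list, points for samples and bars for the group mean and SD (n = 3), each axis starting at 0. The mitosis sum is lowest in the C57BL/6 mutants (918 to 1144 CPM) and highest in C57BL/6 wild type and BALB/c mutants. The erythroid sum is also lowest in the C57BL/6 mutants, and it orders the wild type groups the other way.

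Between strains, wild type samples differed in a pattern of their own. In BALB/c wild type 17 members were lower than in C57BL/6 wild type and 2, Pttg1 and Birc5, were higher by edgeR, where 25.6% of all genes were called lower and 22.8% higher. The share called lower, 38.6% of members, was thus above and the share called higher, 4.55%, below that of all genes. Either way, 19 members were called, 43.2% against 48.5% of all genes. CPM ranges did not overlap with BALB/c lower for 21 members and higher for 5, against 30.1% and 27.3% of all genes. The median log2 difference was -0.18. All 4 cytokinesis genes, all 3 chromosome and spindle genes and 6 of 10 kinesins were lower in BALB/c, the kinesins including Kif14 (log2 -0.76, SE 0.16, adjusted p 0.00296), Kif11 (-0.71, SE 0.12, adjusted p 0.000739) and Kif20b (-0.64, SE 0.13, adjusted p 0.00243). Pttg1 was higher by 0.45 (SE 0.12, adjusted p 0.0075), a call lost with total count scaling (0.0702). Birc5 was higher by 0.28 (SE 0.11, adjusted p 0.0466), with overlapping ranges and a call lost in 7 of 12 alternatives (adjusted p up to 0.36).

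In mutants the strains differed in the other direction. BALB/c mutants were higher than C57BL/6 mutants for 37 of 44 genes and lower for 0, where 18% of all genes were called higher and 18.9% lower. CPM ranges did not overlap, with BALB/c higher, for 37 members and were lower for 0, against 25.4% and 24.8% of all genes. The median was 0.60 on the log2 scale, and the largest difference was that of Ube2c, 1.33 (SE 0.12, adjusted p 1.08e-05, edgeR), followed by Cdc25b at 1.21 and Plk1 at 1.12. The 7 members that did not pass were Pttg1, Kif11, Kif15, Kif20b, Kif4, Cenpe and Anln, with estimates from 0.00 (Kif20b) to 0.31 (Pttg1); Pttg1 passed in 5 of 12 alternatives.

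The strain differences varied with the deposited length, a feature not used to choose the genes. Among the 22 members longer than the members' midpoint of 3134 bases of deposited length, the median strain difference in wild type was -0.41 and 14 were lower in BALB/c. Among the 22 shorter members it was -0.04 and 3 were lower. The same tilt ran through all genes tested, where the medians on either side of that length were -0.16 and 0.13. Across genes, Spearman's rho between length and strain difference was -0.73 for the 44 members and -0.32 for all genes, and in mutants -0.53 and -0.28. These are correlations across genes that share the same 12 libraries and are given as a description. In the genotype contrasts, made within a flow cell, the medians of longer and shorter members were -0.55 and -0.63 in C57BL/6, 0.29 and 0.25 in BALB/c, and 0.83 and 0.84 for the interaction. Their rho for members and for all genes was 0.07 and 0.01 in C57BL/6, 0.17 and 0.20 in BALB/c, of opposite sign to the strain values, and 0.05 and 0.09 for the interaction. Strain, flow cell and any property of library preparation that goes with length cannot be told apart here.

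**Figure D5:**
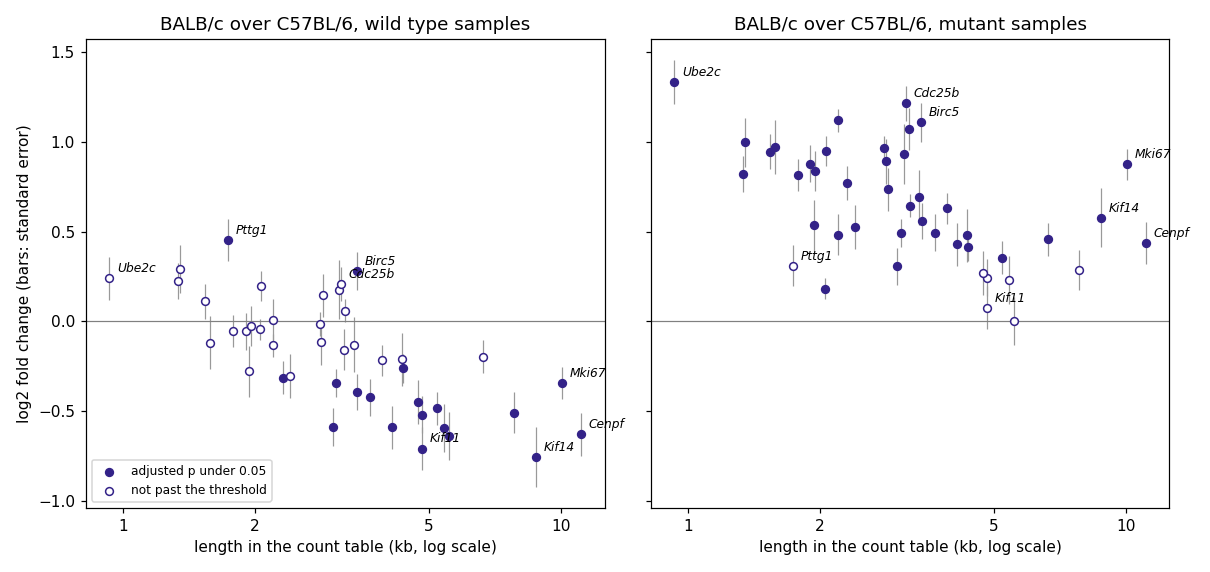
Log2 difference between BALB/c and C57BL/6 for each of the 44 mitosis genes, wild type samples left and mutants right, against the length in the count table in kb on a log axis, with bars of 1 standard error and filled points where edgeR's adjusted p was under 0.05. Longer genes lie lower in both panels (Spearman's rho -0.73 and -0.53), around 0 and below it in wild type and mostly above 0 in mutants.

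Related genes from lists of the same pathway were read from the same edgeR fit, where among all genes 12.6% were called lower and 11.3% higher in C57BL/6 mutants, 0.136% were called either way in BALB/c and 5.46% had a positive interaction. At an unadjusted p under 0.05 in that fit there were 6340 of the 16190 genes in C57BL/6, 1901 in BALB/c and 4780 in the interaction. Unadjusted counts of the lists below are to be read against these. No difference between lists was tested. Of 45 other mitosis genes, 37 fell in C57BL/6 mutants and 0 rose, with a median of -0.49; 0 passed in BALB/c (15 at an unadjusted p under 0.05) and 33 had a positive interaction. Among them Cdca8, which encodes borealin of the passenger complex, fell by 0.76 (SE 0.09, adjusted p 0.000444), and Cks2, a CDK1-binding subunit, by 0.71 (SE 0.09, adjusted p 0.000507). The smallest BALB/c p-values of that list were those of Fbxo5, an inhibitor of the APC/C, at 0.41 on the log2 scale (adjusted p 0.0977), and Cit, citron kinase, at 0.47 (adjusted p 0.147). The subunits of the APC/C, which are made throughout the cell cycle, gave 0 of 13 past the threshold in either genotype contrast or in the interaction (2, 1 and 4 at an unadjusted p under 0.05), where 23.9%, 0.136% and 10% of all genes passed either way, and their median in C57BL/6 was 0.10, with Anapc2 and Anapc5 at 0.13 and 0.16 (adjusted p 0.0548 and 0.116). CHR letters were found in 1 of 12 APC/C promoters and in 21 of 36 promoters of the other mitosis genes. Of all genes with such a window, 19.5% held them. Any link to the expression changes was not tested.

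Of 41 genes of DNA replication, 20 fell in C57BL/6 mutants and 0 rose. Their median was -0.33, with a range from -0.85 to 0.19. In BALB/c 0 passed, and 6 had an unadjusted p under 0.05, as did 1901 of the 16190 genes tested. A positive interaction was called for 13. Fen1, the flap endonuclease, fell by 0.53 (SE 0.07, adjusted p 0.000877), and Mcm2, a helicase subunit, by 0.49 (SE 0.08, adjusted p 0.00199). CHR letters were found in 6 of 32 replication gene promoters and CCAAT letters in 21 of 32, against 19.5% and 38.0% of all genes.

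Of 14 factors that act on G2 and M phase promoters, 3 were lower and 1 higher in C57BL/6 mutants, counts not far from the 12.6% and 11.3% of all genes. Mybl2, which encodes B-MYB, fell from 22.8 to 14.1 CPM (log2 -0.69, SE 0.11, adjusted p 0.00203, edgeR), Foxm1 from 41.8 to 33.7 CPM (log2 -0.31, SE 0.08, adjusted p 0.0179) and the E2F partner Tfdp1 by 0.22 (SE 0.05, adjusted p 0.0110). The one that rose was Rbl2, which encodes the pocket protein p130 of DREAM (log2 0.25, SE 0.08, adjusted p 0.0375). Among the core DREAM subunit genes, Lin9, Lin37, Lin52 and Lin54 had estimates of -0.06 to -0.02. They and Rbbp4, a core subunit gene of the same list, did not pass. Of 6 E2F family and RB genes 4 fell, E2f2 the most, from 29.3 to 11.9 CPM (log2 -1.30, SE 0.12, adjusted p 9.82e-05), with E2f7, E2f8 and Rb1. In BALB/c 0 of 14 and 0 of 6 passed by edgeR (2 and 3 at an unadjusted p under 0.05, where 1901 of 16190 genes were). The nearest was E2f2 at 0.60 on the log2 scale (adjusted p 0.0676).

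At the G1 gate, 3 of 8 cyclins and kinases fell in C57BL/6 mutants, where 12.6% of all genes did: Ccnd1, encoding cyclin D1, from 124 to 68.5 CPM (log2 -0.86, SE 0.12, adjusted p 0.00103, edgeR), Ccne1 by 0.66 (adjusted p 0.00566) and Ccne2 by 0.44 (adjusted p 0.0439). Of 7 CDK inhibitor genes 2 rose and 1 fell, against 11.3% and 12.6% of all genes. Cdkn2b rose from 3.46 to 6.62 CPM (log2 0.94, SE 0.20, adjusted p 0.00842) and Cdkn1a, which encodes p21, from 142 to 175 CPM (log2 0.30, SE 0.09, adjusted p 0.0261), while Cdkn2d fell by 0.41 (SE 0.11, adjusted p 0.0237). Cdkn2b and Cdkn1a also had negative interactions that passed, -1.20 (adjusted p 0.0269) and -0.52 (adjusted p 0.0244), the opposite sign to the mitosis genes.

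Most erythroid, neutrophil precursor, B cell precursor and megakaryocyte markers were lower beside the mitosis genes in C57BL/6 mutants, and every tested marker of these 4 lists had an estimate above 0 in BALB/c. Of 16 erythroid markers tested, 14 fell in C57BL/6 mutants, where 12.6% of all genes did, and their sum was 567 to 740 CPM in C57BL/6 wild type and 205 to 255 CPM in mutants. In BALB/c, 3 of 16 rose (Ermap, Rhd and Spnb1), where 0.0926% of all genes did, 13 of 16 had an unadjusted p under 0.05, and the 16 estimates ran from 0.41 to 0.86 on the log2 scale with a median of 0.64. The sum was 946 to 1366 CPM in wild type and 1644 to 1975 CPM in mutants. No erythroid marker was at 0 in any sample; Klf1 and Gata1, transcription factors of red cell precursors, averaged 1.30 and 1.06 CPM in C57BL/6 mutants, the lowest of the groups. Also lower in C57BL/6 mutants were 7 of 12 neutrophil precursor, 6 of 11 B cell precursor and 4 of 5 megakaryocyte markers. In BALB/c 0 of these were called by edgeR (3, 7 and 4 at an unadjusted p under 0.05, where 1901 of 16190 genes were). Their BALB/c estimates ran from 0.16 to 1.04 (median 0.48) for neutrophil precursor, 0.32 to 1.03 (median 0.66) for B cell precursor and 0.06 to 1.16 (median 0.78) for megakaryocyte markers on the log2 scale. Between wild type groups the orders differed: the erythroid sum was higher in BALB/c (946 to 1366 against 567 to 740 CPM) and the mitosis sum lower (1199.9 to 1366 against 1415 to 1587 CPM). How much of the change in mitosis genes lay in blood precursors was not tested.

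Markers of other tissue moved as well. In C57BL/6 mutants 7 of 10 chondrocyte, 7 of 12 ciliated cell, 5 of 8 epithelial, 3 of 10 olfactory neuron and 1 of 9 skeletal muscle markers fell, where 12.6% of all genes did, while 1 olfactory neuron marker, Adcy3 (log2 0.51, adjusted p 0.000808 by edgeR), 9 of 11 osteoblast, 8 of 8 osteoclast, 3 of 9 macrophage and 2 of 5 endothelial markers rose, where 11.3% of all genes did. Summed chondrocyte markers were at 7530 to 9568 CPM in C57BL/6 wild type, 1605 to 4377 CPM in C57BL/6 mutants, 2143 to 3030 CPM in BALB/c wild type and 2322 to 6643 CPM in BALB/c mutants. Osteoblast markers summed to 113763 to 262835 CPM over the 12 libraries, and were abundant in every library. In BALB/c mutants replicate 16 held skeletal muscle markers at 428 CPM, against 8.51 and 32.0 CPM in replicates 18 and 17, and in C57BL/6 wild type replicate 2 held them at 82.5 CPM, against 18.03 and 8.47 CPM in replicates 1 and 3. The mitosis sum of replicate 16 was 1546 CPM against 1572 and 1569 CPM in replicates 18 and 17. The part of tissue makeup in the mitosis gene changes was not tested.

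The authors' deposited table of DESeq2 comparisons holds all 44 genes. At a q-value under 0.05, the authors' deposited table gave 42 members as lower and 1 as higher in C57BL/6 mutants, where 13.8% and 11.5% of all genes with a q-value were. The authors' deposited table gave 4 as higher in BALB/c mutants, namely Plk1, Mki67, Cdc25b and Kif14, where 1.13% of all genes were. Comparing mutants, the authors' deposited table had 38 members lower in C57BL/6 than in BALB/c, against 17.8% of all genes. Comparing wild types, the authors' deposited table had 16 members (36.4%) higher and 4 (9.09%) lower in C57BL/6, against 24.7% and 20.6% of all genes.

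Counts of some members could include reads of neighbours, since the sources used here do not say whether strand was used in counting. On the opposite strand, exons of Cdc23 overlap 29.3% of the exon bases of Kif20a, those of Tnnc2 22.8% of Ube2c, those of Pdzd11 15.1% of Kif4, those of Gm3550 12.7% of Cdc25c, those of Exosc9 12.5% of Ccna2 and those of Rccd1 11.1% of Prc1. Tnnc2 is a muscle gene, and its part in the Ube2c counts was not tested. Cdc20 shares 10.4% of its 50-base stretches with other annotated genes.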

How the data were processed

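Bulk RNA-seq libraries of 12 frontal bone samples were aligned with TopHat2 2.0.6, counted with HTSeq and compared with DESeq2, per the submitters' processing notes, which also name bcl2fastq and the mouse build mm10. The strand setting and gene annotation are not given in the sources used here. The deposited table holds gene counts that are not normalized, and 0 columns of no sample. All counts are even, and whether each read of a pair was counted is not given in the sources used here. The authors also deposited a table of log2 fold changes and q-values for each comparison, used here only where it is named.

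Genes were kept with filterByExpr (minimum count 10, minimum total 15), scaled with TMM and fitted with edgeR 4.0.16 (limma 3.58.1, R 4.3.3) by the quasi-likelihood test over all 12 samples, with 1 mean per group and no covariate. P-values were adjusted by Benjamini-Hochberg over all 16190 genes, and a call is an adjusted p under 0.05. Alternatives were DESeq2 1.42.0, RLE and total count scaling, no filter, halved counts, a fit of the compared groups alone and leaving out each library. Figures were drawn with matplotlib 3.10.9.

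The members and gene lists were chosen with earlier results of these data known. Values in every sample were given for the most abundant member of each role, the 3 members with the smallest p in each genotype contrast and the interaction, the member lowest per length and members that moved against the rest. In other lists the 2 genes with the smallest p were named. Nek2, the DREAM subunits, Adcy3 and the genes behind counts of 5 or fewer were named after their values were seen. Promoters came from RefSeq on GRCm38.p6, and exon overlaps and shared 50-base stretches from the GENCODE annotation of that build; gene positions are those of the deposited table.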

Additional observations from a re-analysis of the deposited data

Results flagged for a closer look

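The genotype effect differed between the strains for 38 of the 44 mitosis genes, by the interaction term of the edgeR fit at an adjusted p under 0.05. Among the genes given in every sample, the effect in BALB/c exceeded that in C57BL/6, on the log2 scale, by 1.33 for Kif14, 1.25 for Plk1, 1.22 for Mki67, 1.07 for Cenpf and 1.01 for Cdc25b. It exceeded it by 0.98 for Ccna2, 0.84 for Racgap1, 0.83 for Birc5, 0.78 for Kif11, 0.65 for Espl1 and 0.58 for Incenp. The adjusted p of these 11 ran from 5.23e-05 (Plk1) to 0.019 (Kif11). Bub3 at 0.23 and Pttg1 at -0.14, also given in every sample, did not pass (adjusted p 0.0946 and 0.593). Markers of blood cells, cartilage and bone also had interactions that passed. Positive were 14 of 16 erythroid, 8 of 11 B cell precursor, 5 of 12 neutrophil precursor and 5 of 5 megakaryocyte markers, and 0 were negative. The erythroid median was 2.64, against 0.83 for the 44 members. Of chondrocyte markers 2 of 10 were positive and 0 negative. Negative were 5 of 11 osteoblast and 7 of 8 osteoclast markers, and 0 were positive. Among all genes, 5.46% were positive and 4.58% negative. The part of these markers in the differences of the mitosis genes was not tested.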

How the results depend on the processing

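The count of members called in BALB/c mutants, 1 by edgeR, was 6 with DESeq2, 0 with total count scaling, 2 with no filter on low counts and 4 with the BALB/c libraries alone, and 0 to 1 when each BALB/c library was left out; the cause was not tested. The share of all genes called higher moved as well, from 0.0926% to 1.46%, 0.0185%, 0.103% and 0.341% in that order, and 0% to 0.496% with a library left out. The other counts of members called either way stayed within 1.5 times their value. The 2 members called higher in BALB/c wild type became 6 in a fit of the wild type libraries alone (21.4% of all genes). With total count scaling they became 0 (13.7%). With each library left out they ran from 30 to 43 in C57BL/6 (30 without wild type replicate 1 or mutant replicate 6), 31 to 40 for the interaction, 17 to 18 between wild types and 32 to 41 between mutants. Over the remaining alternatives the counts ran from 29 (C57BL/6 libraries alone) to 44, 38 to 43, 20 to 24 and 37 to 41. The share of all genes there ran from 9.21% to 28.9%, 6.59% to 16.7%, 38.3% to 50.2% and 27.8% to 39.4%. Total count scaling moved the median of all genes by -0.20 in C57BL/6, 0.24 for the interaction, -0.12 between wild types and 0.11 between mutants; with it 43 members were lower and 0 higher in C57BL/6 (25.1% and 3.80% of all genes), and 21 lower and 0 higher in BALB/c wild type (30.3% and 13.7%). The share of promoters with a CHR match was 40.5% (17.5% of all genes) in the 250 bases before the start alone. No paired analysis was made, since the groups share no replicate numbers and no pairing of their samples was known. With 3 libraries a group, and strain on separate flow cells, small BALB/c differences and strain effects are limited in precision and attribution.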
